A study of Mus musculus with 4 samples.

Results

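The genes described here build, maintain or signal through the primary cilium, or cause cystic kidney disease when lost. They are 41 mouse genes chosen by name, and their probe sets were taken wherever the platform table gave 1 of these symbols alone. Of the 41, 36 had a probe set, 63 probe sets in all, out of 18193 genes with a probe set of 1 symbol on the array. Pkd2, Rpgrip1l, Anks6, Arl13b and Arl6 had none in the tables used and were not analysed here. The gene Tmem67 lay below the filter on dim signal, which left 35 tested genes.

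The values come from 4 single-colour oligonucleotide arrays hybridised with RNA from wild-type CD-1 mouse fetuses, an outbred stock, at embryonic stage E15.5 (Theiler stage 23), of unknown sex. Cells were cut by laser from frozen kidney sections. The cortical collecting duct, the outer branches of the ureteric epithelium, had 1 array, which its title numbers 3 (called the duct array below). The loop of Henle anlage, from which the thick ascending limb forms, had 3 arrays, numbered 1 to 3. About 50 sections out of 5 kidneys were pooled for every array. Nothing states how the structures were recognised or whether pools shared fetuses, so the p-values measure only a spread between pools. The 1 duct pool gives no spread, so that of the 3 anlage pools, moderated over all genes, stands for both structures. A lower value in such a pool may mean fewer cells that make a transcript or less RNA in each cell, and these cannot be told apart.

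The primary cilium is a single, non-motile projection of the cell surface, which on kidney tubule cells reaches into the lumen. Trains of intraflagellar transport (IFT) proteins build it: kinesin-2 carries the IFT-B complex with its cargo to the tip, and dynein-2 with the IFT-A complex brings it back. The BBSome, a coat of Bardet-Biedl syndrome proteins, moves membrane proteins out of the cilium, and the transition zone at its base gates entry. Polycystin-1, polycystin-2 and fibrocystin sit on this organelle, and loss of them, or of many ciliary proteins, turns tubules into cysts. Cysts arise from collecting ducts and, in several of these diseases, from loop and other nephron segments too.

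Many ciliary genes carry an X-box, the sequence bound by RFX transcription factors, near their start. A loose form of it, the half-sites GTNNCC and GGNAAC with 2 bases between them and N for any base, was searched on both strands of RefSeq promoter windows (250 bases before to 50 after a gene's start, build GRCm38.p6). It stood in 7 of 38 windows of these genes (18.4%, over 34 genes with a window), against 1.29% of all 32851 windows. With the first half-site narrowed to GTTNCC, the counts were 3 of 38 and 0.451%. With the second half-site loosened to NGNAAC they were 7 of 38 and 2.17%. The spelling was chosen after several had been counted. The 7 matches are shown because they are a feature of 7 of the 34 genes with a window that their selection did not use. Capitals mark the match, and each line runs 5′ to 3′ on the gene's strand.
Ahi1: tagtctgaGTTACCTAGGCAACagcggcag
Bbs1: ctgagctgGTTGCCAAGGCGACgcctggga
Bbs4: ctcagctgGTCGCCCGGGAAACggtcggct
Bbs7: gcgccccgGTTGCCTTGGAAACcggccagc
Ift57: cgggtctgGTTGCCGTGGTGACcggctgcc
Mks1: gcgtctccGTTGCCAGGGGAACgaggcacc
Nphp4: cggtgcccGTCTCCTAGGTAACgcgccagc

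The printed windows lie at chr10:20952560-20952589 (plus strand) for Ahi1, chr19:4906605-4906634 (minus) for Bbs1, chr9:59353464-59353493 (minus) for Bbs4 and chr3:36613489-36613518 (minus) for Bbs7. Those of Ift57, Mks1 and Nphp4 lie at chr16:49699199-49699228, chr11:87853183-87853212 and chr4:152477903-152477932, all on the plus strand. In Nphp4, Bbs7, Ift57 and Mks1 the match began 231, 121, 87 and 24 bases before the annotated start. In Bbs1, Ahi1 and Bbs4 it began at base 2, 22 and 24 of the transcript. The match reads on both strands in Ahi1, Bbs7 and Mks1. In Bbs1 and Ift57 it reads only on the opposite strand, so their capitals show its reverse complement. A match is a stretch of letters and was not tested for binding.

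Values below are log2 of the normalized signal plus an offset of 109.6, which understates differences of dim genes. Each gene is given by its brightest probe set, and a difference is the collecting duct value minus the anlage mean with its standard error (SE). Because probes differ in efficiency, levels are compared between arrays and not between genes.

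The 35 tested ciliary and cystic disease genes differed by less than 2-fold between the duct array and the mean of the loop anlage arrays. None of the 35 passed in limma (Benjamini-Hochberg adjusted p = 0.9999 for the member nearest to passing), and 0 of 35 had an unadjusted p under 0.05, where 3.41% of all 12642 genes did. Over all genes 0 were called higher (0%) and 0 lower (0%). The differences of the members ran from −0.51 for Ofd1 to 0.79 for Glis2, so 0 of 35 exceeded a 2-fold difference, which 11.6% of all genes did. Of the 35, 16 had a higher value in the duct array (45.7%), as did 45.1% of all genes, and 19 a lower one. The median difference was −0.10 over the members and −0.06 over all genes tested. The median size of the difference, sign aside, was 0.28 over the members and 0.36 over all genes tested.

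**Figure D1:**
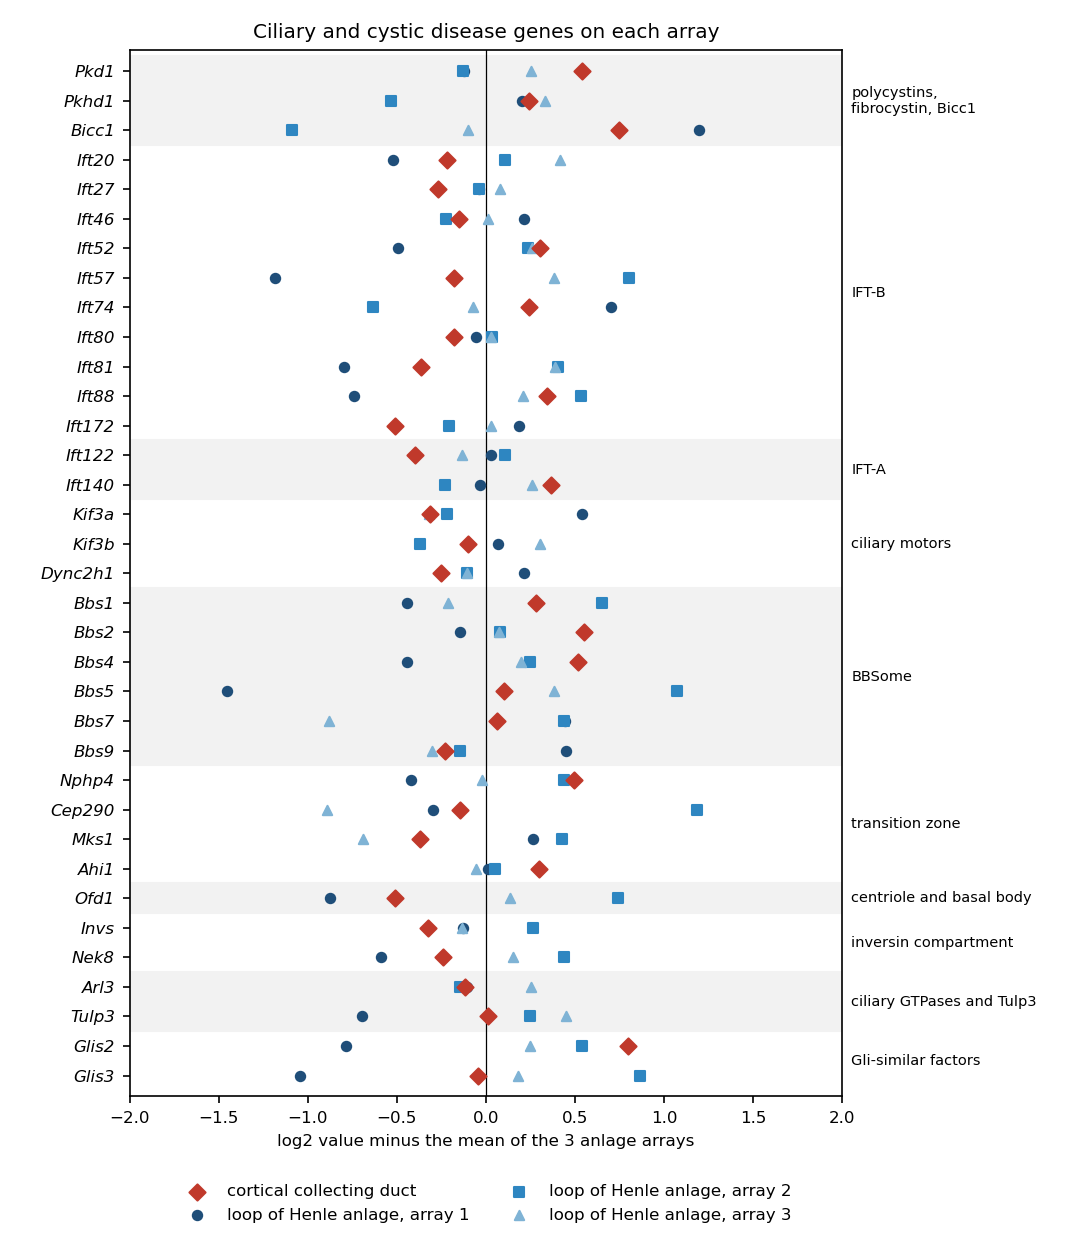
Log2 value of each of the 35 tested genes on each array, minus the mean of the 3 anlage arrays (x axis); genes run down the page by role. The collecting duct diamond lies within 0.8 of the anlage mean for every gene, while single anlage arrays lie up to 1.45 from it.

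Listed markers of the 2 segments differed in the directions that the labels give. All 11 tested collecting duct markers had higher values in the duct array, with a median difference of 2.48. Above all 3 anlage arrays were 10 of them (90.9%, against 17.3% of all genes). All 9 loop of Henle markers lay below all 3 anlage arrays, where 24.3% of all genes did, with a median difference of −3.35. The anlage arrays were not alike in these markers. Array 2 had the lowest mean over the loop markers, 10.67, against 12.36 and 11.97 in arrays 1 and 3. It had the highest over the 12 collecting duct markers on the array, 10.68, against 9.67 and 9.38. The part of this in the values of the members was not tested. These marker lists were chosen with results of these data known, so their directions are no independent check of the labels.

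**Figure D2:**
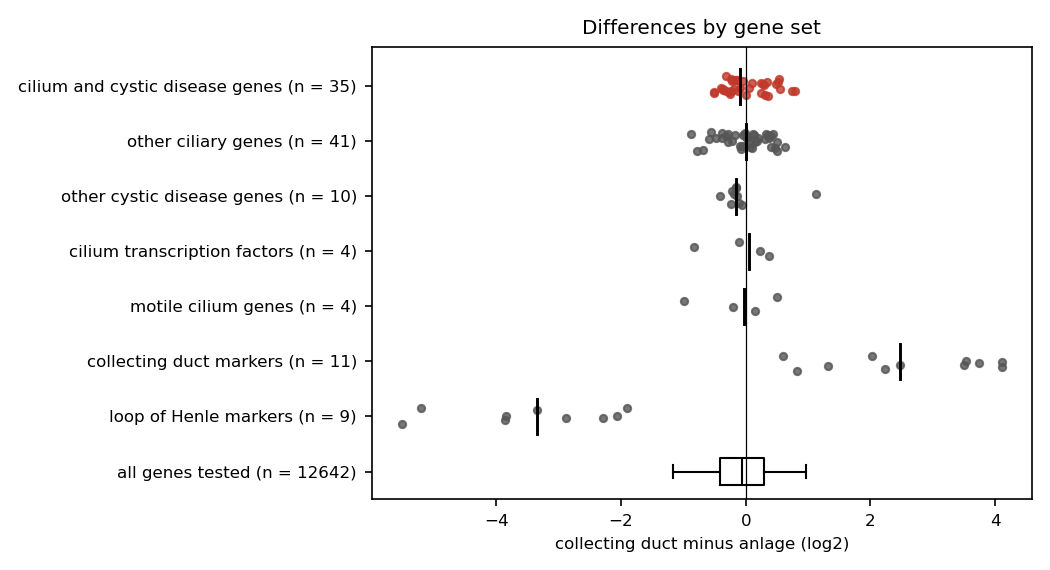
Collecting duct minus anlage difference (log2, x axis) of each tested gene by set, with the set's median as a bar; the box for all genes spans the quartiles and its whiskers the 5th to 95th percentile. The 35 ciliary and cystic disease genes lie between −0.51 and 0.79, while loop markers reach −5.52 and collecting duct markers 4.11.

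The collecting duct value lay above all 3 anlage values for 8 members (22.9%), where it did so for 17.3% of all genes, and below all 3 for 6 (17.1%, against 24.3% of all genes). With arrays scaled to a common median instead, 3 members lay above and 3 below, where 10.1% and 20.4% of all genes did. Without anlage array 1, 14 of 35 lay below the other 2 arrays, as did 47.5% of all genes. Together 14 of 35 members lay outside the anlage range (40%), near the 41.6% of all genes. For 28 members the anlage arrays were farther apart from each other than the collecting duct was from their mean (80%), as they were for 81.0% of all genes. In 22 of 35 members (62.9%) the difference was smaller than the SD of the anlage arrays, as it was in 60.1% of all genes.

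How large a difference these arrays could have missed without adjustment is shown by the intervals. The adjusted threshold missed more: Kcnj1, a loop of Henle marker with a difference of −5.52, did not pass it either. Not passing therefore says little about the members. The 95% intervals of all 35 differences held 0, and their half-widths ran from 0.83 (Arl3) to 2.44 (Bbs5), with a median of 1.43. For 27 members the interval stayed within 2 log2 units, a 4-fold change, on either side of 0, and for 8 it reached past that. Only that of Arl3 stayed within 1. A difference of under 2-fold was therefore not detectable for nearly all members, and the data do not show that levels were equal.

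**Figure D3:**
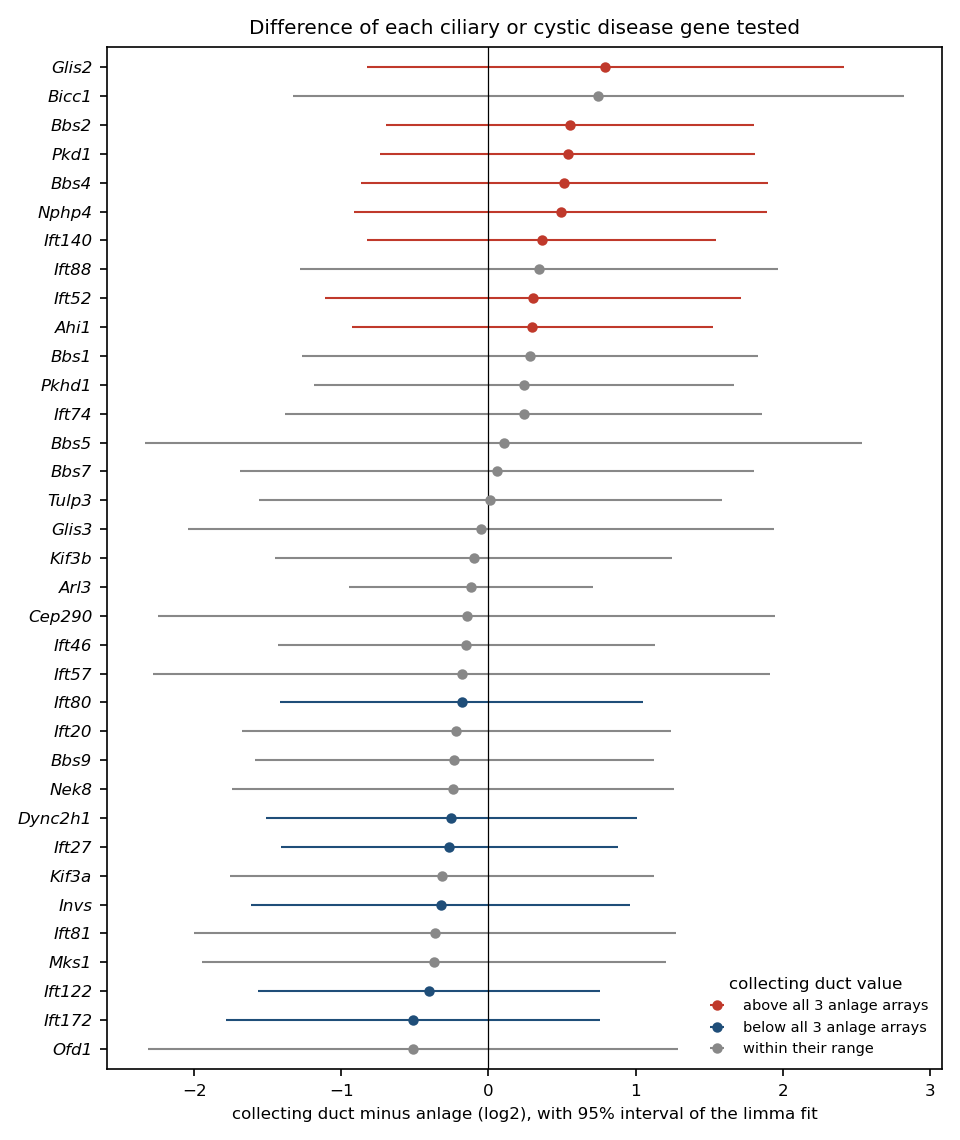
Collecting duct minus anlage difference (log2, x axis) of the 35 tested genes in rank order, with 95% intervals from the limma fit. Colour marks whether the collecting duct value lay above, below or within the 3 anlage values; every interval holds 0, including those of the 14 genes outside the anlage range.

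Among the polycystin and fibrocystin genes, Pkd1 had the clearest offset between the structures. Pkd1, which encodes polycystin-1, the receptor-like protein mutated in most dominant polycystic kidney disease, stood at 10.34 in the duct array, against 9.68, 9.67 and 10.06 in anlage arrays 1, 2 and 3. All 3 anlage values lay below the collecting duct, by a mean of 0.54 ± 0.52 (SE), a 1.45-fold difference that did not pass. Pkhd1, which encodes fibrocystin of recessive polycystic kidney disease, stood at 11.79, against 11.75, 11.01 and 11.88 in the anlage. Its collecting duct value lay inside the anlage range, with a difference of 0.24 ± 0.58 (SE) that was −0.02 without anlage array 2.

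Bicc1 encodes an RNA-binding protein whose loss gives cystic kidneys in the bpk and jcpk mice. Its value was 14.67 in the duct array, against 15.11, 12.83 and 13.81 in the anlage. The anlage arrays spanned more than 2 log2 units, array 1 lying above the collecting duct and array 2 lowest, so the difference of 0.75 ± 0.85 (SE) was smaller than their SD of 1.15. Without anlage array 1 the difference was 1.35 and without array 2 it was 0.20. All 3 probe sets of Bicc1 gave a higher collecting duct value, by 0.22 to 1.39.

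Of the 10 tested IFT-B genes, 3 had a higher value in the duct array (30%, against 45.1% of all genes) and 7 a lower one. Their median difference was −0.18, and none passed. Ift172, the largest IFT-B protein, stood at 10.59 in the duct array, against 11.29, 10.90 and 11.13 in the anlage. It was below all 3 anlage arrays, with a difference of −0.51 ± 0.52 (SE). Ift27, a small Rab-like GTPase of the complex, had 12.28, against 12.51, 12.50 and 12.62, and Ift80 had 10.96, against 11.09, 11.18 and 11.17. In both the anlage arrays agreed closely, with SDs of 0.07 and 0.05, and the collecting duct lay just under them, with differences of −0.27 ± 0.47 for Ift27 and −0.18 ± 0.50 (SE) for Ift80.

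Ift52, a core subunit, was the IFT-B gene that lay above all anlage arrays, at 10.92, against 10.13, 10.85 and 10.88. The gap to arrays 2 and 3 was small, and the difference of 0.30 ± 0.58 (SE) rested largely on array 1, being 0.06 without it. Ift88, whose hypomorphic allele in the orpk mouse first tied cilia to cystic kidney, had 11.61, against 10.53, 11.80 and 11.48 in the anlage, inside their range (0.34 ± 0.67, SE). Ift81, which with Ift74 binds tubulin cargo, had 11.55, against 11.12, 12.32 and 12.30. Ift74 showed the anlage arrays in the opposite order, at 11.94 in the collecting duct, against 12.40, 11.07 and 11.63. Neither partner lay outside the anlage range. Ift57 spread most, at 10.44, against 9.44, 11.42 and 11.00 in the anlage, a range of nearly 2 units within the anlage. Ift20 and Ift46 differed by −0.22 ± 0.60 and −0.15 ± 0.52 (SE) and lay inside the range.

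The IFT-A genes pointed in opposite directions. Ift122 had 12.13 in the duct array, against 12.56, 12.64 and 12.40 in the anlage, below all of them (−0.40 ± 0.48, SE). Its other probe set differed by 0.33. Ift140, mutated in skeletal ciliopathies with kidney disease, had 12.95, against 12.55, 12.36 and 12.85, above all of them (0.36 ± 0.49, SE). Both are subunits of the same complex, and neither difference passed. With arrays scaled to a common median the difference of Ift140 was 0.061, and by the mean over its probe sets that of Ift122 was −0.034.

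The motor genes had slightly lower values in the duct array in all 3 cases, where 45.1% of all genes had a higher one, and none passed. Dync2h1, the heavy chain of dynein-2, stood at 11.03, against 11.49, 11.18 and 11.18, just under the anlage range (−0.25 ± 0.52, SE). Kif3a had 11.06, against 11.91, 11.16 and 11.06, and Kif3b 10.08, against 10.25, 9.81 and 10.48. These kinesin-2 subunits differed by −0.31 ± 0.59 and −0.10 ± 0.55 (SE), and their other probe sets went both ways.

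Of the 6 BBSome genes, 5 had a higher value in the duct array (83.3%, against 45.1% of all genes). Their median difference was 0.19, and none passed. Bbs2 stood at 10.91 in the duct array, against 10.21, 10.43 and 10.43 in the anlage, above all of them by a mean of 0.55 ± 0.51 (SE). Bbs4 was above them too, at 11.12, against 10.16, 10.85 and 10.79 (0.52 ± 0.57, SE). Bbs5 gave the widest spread of any member, at 9.43, against 7.87, 10.40 and 9.71, with array 1 far below the rest. Bbs1, Bbs7 and Bbs9 lay inside the anlage range, at 0.28 ± 0.63, 0.06 ± 0.71 and −0.23 ± 0.55 (SE).

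At the transition zone, Nphp4 and Ahi1 lay above all 3 anlage arrays. Nphp4, mutated in nephronophthisis, had 10.13 in the duct array, against 9.22, 10.08 and 9.62, close to array 2 (0.49 ± 0.57, SE). Ahi1, which encodes jouberin of Joubert syndrome, had 11.55, against 11.26, 11.30 and 11.19, a small gap to a tight group (0.30 ± 0.50, SE). Mks1, a B9-domain protein of Meckel syndrome, had 10.27, against 10.90, 11.06 and 9.94. Cep290, which links the transition zone membrane to its microtubules, had 8.50, against 8.35, 9.83 and 7.76, values near the filter level of 8.42. Ofd1, a protein of the centriole and its satellites encoded on the X chromosome, had 9.32, against 8.95, 10.57 and 9.96 (−0.51 ± 0.74, SE). None of Mks1, Cep290 and Ofd1 lay outside the anlage range.

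Tmem67, which encodes the transition zone receptor meckelin, was too dim to be tested, with a mean under the filter level. Its signal was 9.05 in the duct array, against 8.13, 7.33 and 7.11 in the anlage. The duct value was above all 3, and above their mean by 1.53. With no filter on dim probe sets it had an unadjusted p of 0.0299 in limma and an adjusted p of 0.99996. It is the 1 member whose difference exceeded 2-fold, at a signal where the size depends on the offset.

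Invs and Nek8, which mark the inversin compartment just beyond the transition zone, both had lower values in the duct array. Invs, the gene of infantile nephronophthisis, had 10.59, against 10.78, 11.18 and 10.78, below all anlage arrays (−0.32 ± 0.53, SE). Nek8, a kinase whose mutation gives the cystic jck mouse, had 10.06, against 9.72, 10.75 and 10.46, inside their range (−0.24 ± 0.61, SE). Both signs turned when all probe sets were averaged, to 0.12 for Invs and 0.22 for Nek8. Arl3, a GTPase that releases lipid-anchored cargo inside the cilium, had 15.19, against 15.20, 15.16 and 15.56, and gave the narrowest interval, −0.95 to 0.71. Tulp3, an adaptor that carries membrane receptors into the cilium with IFT-A, had 11.49, against 10.78, 11.73 and 11.93, a difference of 0.01 ± 0.64 (SE).

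Glis2 had the largest difference of any tested member. This Krüppel-like zinc finger factor, mutated in nephronophthisis, stood at 12.83 in the duct array, against 11.25, 12.57 and 12.28 in the anlage. It was above all of them, nearest to array 2 and farthest from array 1, by a mean of 0.79 ± 0.66 (SE), a 1.73-fold difference with an unadjusted p of 0.276 in limma. Without anlage array 1 the difference was 0.42. Its second probe set differed by 0.59. Glis3, its relative mutated in a syndrome with diabetes and cystic kidneys, had 11.17, against 10.17, 12.08 and 11.39, a difference of −0.05 ± 0.82 (SE) with no stable sign.

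Probe sets of the same gene did not always agree in sign. The share that disagree over all genes with several probe sets was not counted, so these counts describe the members only. Of 16 members with several probe sets, 6 gave the same sign in all of them and 10 did not. In 5 of those the probe sets spanned over 1 log2 unit across 0: from −0.96 to 0.95 for Ift81, −0.38 to 0.98 for Kif3a, −0.62 to 0.72 for Kif3b, −0.34 to 0.97 for Bbs4 and −1.31 to 0.08 for Tulp3. Glis2, Nphp4, Bicc1 and Bbs7 had higher collecting duct values in each probe set, and Ift27 and Ift80 lower ones. Over all 63 probe sets, the dim ones included, 35 had a higher and 28 a lower value in the duct array.

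**Figure D4:**
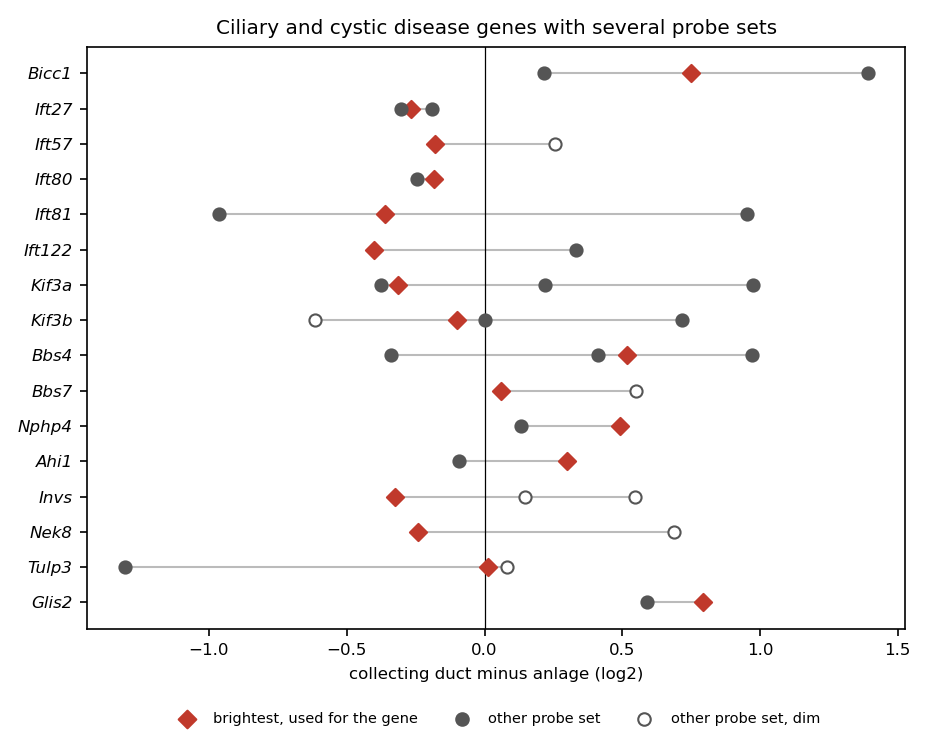
Collecting duct minus anlage difference (log2, x axis) of every probe set of the 16 genes that have several; red diamonds are the brightest, used for the gene, and open circles are dim. The probe sets of 10 genes fall on both sides of 0.

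Anlage array 1 stood farthest from the other anlage arrays in these genes. The median size of the difference between anlage arrays 1 and 2 was 0.69 over the 35 members and 0.69 over all genes, and between arrays 1 and 3 it was 0.64 and 0.54. Between arrays 2 and 3 it was smaller, 0.32 over the members and 0.40 over all genes. Between the duct array and anlage arrays 1, 2 and 3 it was 0.46, 0.37 and 0.34 over the members and 0.46, 0.54 and 0.43 over all genes. Anlage array 1 was the lowest of the 4 arrays for 15 of 35 members (42.9%, against 40.6% of all genes), Ift57, Ift81, Ift88, Bbs5, Glis2 and Glis3 among them. A sign of RNA quality, the ratio of 3′ to 5′ Gapdh signal that climbs with degradation, stood at 12.05 for the duct and 10.3, 54.1 and 26.0 for anlage arrays 1 to 3, lowest in array 1. Its part in the values of these genes was not tested. Markers of endothelium were lower in the duct array in all 5 tested cases. The summed normalized signal of the 6 on the array, 1 of them too dim to test, was 2272 there and 3639 to 12486 in the anlage. Of 6 stromal markers 5 had lower values, with a sum of 98129, against 95143 to 225713. Their part in the values was not tested either.

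Ciliary genes beyond the 41 members also stayed within a 2-fold difference. Of 43 listed, 41 were tested, 21 with a higher and 20 with a lower value in the duct array, a median difference of 0.01 and 0 passing in limma (0 with an unadjusted p under 0.05). Above all 3 anlage arrays were 6 (14.6%, against 17.3% of all genes) and below them 6 (14.6%, against 24.3%). B9d1, a transition zone partner of Mks1, stood at 10.25 in the duct array, against 10.96, 11.04 and 11.36, below all of them (−0.87 ± 0.52, SE). B9d2, the other B9-domain partner, had 9.91, against 10.05, 10.59 and 10.85, also below (−0.59 ± 0.57, SE). With Mks1 at −0.37 ± 0.65, all 3 B9-domain genes had lower values, where 45.1% of all genes had a higher one. None passed, and Mks1 lay inside the anlage range. B9d1 and B9d2 were named because they lay below that range, so the 3 are no independent pattern.

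The centrosomal nephronophthisis gene Sdccag8 had 9.62, against 10.36, 10.44 and 10.10 (−0.68 ± 0.52, SE), with a difference of 0.02 by the mean of its probe sets. Highest relative to the anlage among those outside its range were Bbs12, a chaperonin-like BBSome assembly factor (0.51 ± 0.59, SE), Cys1, which encodes the cystin lost in the cpk mouse (0.50 ± 0.54), and the dynein-2 intermediate chain Wdr34 (0.44 ± 0.56). Cys1 stood at 12.11 in the duct array, against 11.97, 11.34 and 11.52, just above array 1.

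Of 10 other tested genes of cystic kidney disease, 0 passed in limma (0 with an unadjusted p under 0.05). They were mostly inside the anlage range (10% outside it, against 41.6% of all genes). In the duct array 9 were slightly lower and 1 higher (10%, against 45.1% of all genes). The exception was Tsc2, which encodes tuberin, the brake on mTORC1 lost in tuberous sclerosis. Tsc2 stood at 10.22 in the duct array, against 9.04, 9.13 and 9.10 in the anlage. The anlage arrays agreed within an SD of 0.04. The collecting duct lay above all of them, by a mean of 1.13 ± 0.49 (SE). This 2.18-fold difference had a 95% interval of −0.08 to 2.33. In the RefSeq gene table Tsc2 is the next protein-coding gene after Pkd1, which had also lain above all anlage arrays. So had 17.3% of all genes, and a link between the values of these neighbours was not tested.

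RFX factors, which bind the X-box, did not differ in a way the arrays could resolve. Rfx1 had 10.06 in the duct array, against 9.49, 10.74 and 10.27, and Rfx3, a main factor of ciliary genes, 7.96, against 7.90, 9.74 and 8.76 (−0.84 ± 0.78, SE). Both collecting duct values lay inside the anlage range. Rfx5 and Rfx7 differed by 0.23 ± 0.49 and 0.38 ± 0.50 (SE), also inside it. Among the 7 members with the X-box letters, Ahi1, Bbs4 and Nphp4 were above all anlage arrays and Bbs1, Bbs7, Ift57 and Mks1 were within their range. The share above all anlage arrays was 22.9% over all tested members and 17.3% over all genes tested. A link between the letters and these values was not tested.

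Mammalian tubule cells normally lack motile cilia. Of 12 listed genes of motile cilia, 8 lay below the filter and 4 were tested, where 12642 of all 18193 genes were tested. All 4 lay inside the anlage range, where 41.6% of all genes lay outside it, and none passed. Foxj1, the master factor of motile cilia, was below the filter at 8.18 in the duct array, against 7.55, 7.88 and 7.68.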

How the data were processed

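RNA from laser-captured structures was amplified over 2 rounds and biotin-labelled, per the labels' protocols. The deposited values were linear probe set intensities for which the submitters' processing notes name GCOS, without a version or algorithm. Each deposited array's mean after trimming 2% at each end was 1500.01, while medians ran from 206.9 to 526.5. For arrays, their number limits the precision.

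The 45101 probe sets were quantile normalized, log2(intensity + 109.6) was taken (the 25th percentile), and 64 controls were dropped. Genes with 1 symbol were given by their brightest probe set. Those with a mean under 8.42, the 40th percentile, were not tested, which left 12642 of 18193 genes. Symbols came from the platform table, and 34754 probe sets matched RefSeq genes by Entrez number with 0 updates.

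Collecting duct was compared with anlage in limma 3.58.1 (R 4.3.3; lmFit, eBayes with trend, two-sided, Benjamini-Hochberg, threshold 0.05), with 2 residual and 4.04 prior degrees of freedom. The fit assumes that the single duct array varies as the anlage arrays do. With 1 array against 3, exact permutation p-values cannot go below 0.25. The script was tested on simulated data. Alternatives changed the scaling, the offset, the filter, the probe set rule, the trend and the arrays included. Members, lists and the promoter motif were chosen with earlier results of these data known. Array values are given in full for members outside the anlage range (up to 8 per direction), the polycystin, inversin and Glis groups, members whose probe sets disagree by over 1 across 0, and up to 3 genes per direction of each other list; further genes were named after their values were seen.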

Additional observations from a re-analysis of the deposited data

How the results depend on the processing

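No paired analysis was possible because the groups share fewer than 2 replicate numbers. Under 11 alternatives, 0 members passed, the lowest adjusted p being 0.421 (Bicc1 without anlage array 1). Leaving out 1 anlage array gave 0 to 14 called genes in all, 14 without array 2, none of them a member. It gave 9 to 10 members above the anlage range (22.8% to 27.8% of all genes) and 9 to 14 below it (28.5% to 47.5% of all genes), and a median member difference of −0.16 to 0.01.

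Scaling to a common median left 3 members above the range and 3 below (10.1% and 20.4% of all genes), with a median difference of −0.26 (−0.24 over all genes, against −0.06 before). With the mean of all probe sets the median was 0.10. Of all probe sets tested singly, 14 lay above the range and 8 below (17.5% and 22.5% of all probe sets tested). Of 22 named members, 15 kept their sign throughout. Leaving out the filter or the trend, or testing each probe set singly, leaves these differences unchanged, so those settings could not turn a sign. Nor could the mean over probe sets for genes with 1 probe set. By the mean of all probe sets the sign turned for Invs (0.12), Nek8 (0.22), Kif3a (0.13), Kif3b (0.00093), Tulp3 (−0.40) and Sdccag8 (0.023). With no scaling it turned for Kif3b (0.12), and with median scaling for Tulp3 (−0.26). Leaving out an array moved Pkhd1 between −0.024 and 0.41, Glis3 between −0.60 and 0.35 and Tulp3 between −0.36 and 0.24.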

Other observations

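With a gene's brightest probe set, members past a 2-fold difference appeared only with an array or the filter left out. Without anlage array 1 they were Bicc1 (1.35) and Ofd1 (−1.03), and without array 2 Glis2 (1.01); with no filter Tmem67 joined them (1.53). Single probe sets of Bicc1 (1.39) and Tulp3 (−1.31) also lay past it. The Tsc2 difference ran from 0.99 to 1.35 over all settings and did not pass in any, with a lowest adjusted p of 0.478 in limma.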
